A study of Mus musculus with 28 samples.

Results

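The 10 genes described here encode fibronectin (Fn1), the tenascins Tnc and Tnn, and 7 integrin subunits (Itga2, Itga5, Itga10, Itga11, Itgav, Itgb1 and Itgb5). They were picked by name from the 53801 genes listed in the bulk count tables, with earlier results of these data known, among them that Fn1 had moved in opposite directions with genotype in growth plate and periosteum. Their genotype differences in RNA are therefore given as a description, with no test. All 10 were among the 13173 genes that passed the filter on low counts, although Itga2 had no count in replicate 1 of any group and passed through the other libraries.

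Fibronectin is a secreted glycoprotein that cells pull into fibrils through integrins, which are membrane receptors made of 1 alpha and 1 beta chain. The Itgb1 chain joins Itga5 to form the main fibronectin receptor and joins Itga2, Itga10 or Itga11 to form receptors for collagens, while Itgav, with Itgb5, Itgb1 or another beta chain as its partner, recognizes fibronectin and vitronectin. Tenascins are matrix proteins that modulate this adhesion. In the skeleton, Itga10 is known from cartilage and Itga11 from fibroblastic and periosteal cells.

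The cells were Ai9+ cells sorted from mouse bone, in which deletion of Zmpste24 (Z24), the protease that matures prelamin A, was used as a model of premature aging. In bulk, RNA-seq and ATAC-seq (which reads accessible chromatin) each had 3 control and 3 conditional knockout (CKO) libraries of growth plate cells gated on CD73 (gpSSPCs) and of periosteal cells gated on Sca1 (pSSPCs), all negative for CD31, CD45 and Ter119, at 20 weeks of age on a C57BL/6 background. Prx1-Cre, a driver active in limb mesenchyme, both removed the floxed Z24 exon and switched on the Ai9 reporter, so every sorted cell, controls included, carried Cre and the reporter. The genotype field of the labels reads PrxCre; Z24fl/fl for controls and CKO alike, and the titles separate them. Growth plate was digested with collagenase and periosteum with collagenase and dispase, so that tissue, gate and digestion cannot be told apart in a comparison of gpSSPCs with pSSPCs. Bone marrow and bone gave 4 droplet libraries of single Ai9+ cells. At 8 weeks there was 1 library of the Prx1-Cre line and 1 of the Osx-Cre line, whose labels name Z24fl/fl although the methods describe reporter mice with no Z24 allele. At 16 weeks there was 1 library of PrxCre; Z24fl/+ controls and 1 of PrxCre; Z24fl/fl CKO mice, each pooled from 3 mice. The study's methods give the cell numbers of these 16-week libraries to the opposite genotypes, and the labels are followed here. In the library labelled control Zmpste24 had 70 UMIs and in that labelled CKO 11 UMIs, of 3606176 and 3499877 UMIs in all.

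Total counts in the RNA libraries lay between 1333260 and 5315709. Replicate 1 stood apart in every group: the first principal component held 51.1% of the variance and separated the replicate 1 libraries from all others. Replicates 2 and 3 of a group differed by less than sampling noise over genes with 5 to 99 counts (chi-square per degree of freedom 0.82 to 0.98, where pairs that included replicate 1 gave 10.2 to 13.1). Over all genes with at least 20 counts they differed by somewhat more than sampling noise (1.59 to 1.92), where pairs with replicate 1 gave 53.2 to 71.5. They were summed and counted as 1 sample. This left 2 samples per group. The labels do not say whether replicates came from separate mice, so p-values measure the spread between these samples only.

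Zmpste24 itself had 11, 48 and 80 counts in control gpSSPCs and 2, 21 and 29 in CKO gpSSPCs. In pSSPCs it had 1, 51 and 84 counts in controls and 0, 28 and 41 in CKO libraries. These unscaled counts were lower in CKO at every replicate number, in pSSPC replicate 1 by 1 count against 0. The log2 differences, CKO minus control, were -1.141 ± 1.929 in gpSSPCs and -1.189 ± 1.925 in pSSPCs (SE, n = 2 samples per group). Their unadjusted p-values were 0.568 and 0.551 by edgeR's quasi-likelihood test. Whether these counts come from the deleted exon was not tested. The sort was visible in Nt5e (CD73), which was 2.17 ± 0.37 (log2, SE, n = 4 samples per population) higher in gpSSPCs with an adjusted p of 0.0498 by edgeR's quasi-likelihood test. Ly6a (Sca1) was higher in pSSPCs by 1.80 ± 0.49 (edgeR, adjusted p = 0.183). Replicate numbers paired the RNA samples, and with that number as a block the adjusted p was 2.45e-10.

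Fn1 went in opposite directions in the 2 populations. In control gpSSPCs it stood at 3738 CPM (counts per 1000000 counts of the library, scaled by TMM) in replicate 1 and at 3131 CPM in replicates 2 and 3, and in CKO gpSSPCs at 2524 and 2744 CPM. Both control samples lay above both CKO samples. In control pSSPCs Fn1 stood at 2776 and 3047 CPM, and in CKO pSSPCs at 4312 and 6132 CPM, so that here both CKO samples lay above both controls. The difference, CKO minus control, was -0.38 ± 0.36 (log2, SE, n = 2 samples per group) in gpSSPCs and 0.84 ± 0.36 in pSSPCs. These are the values that chose the gene, and the difference between them was not tested. Within replicate 1 the log2 differences were -0.57 and 0.64, and within replicates 2 and 3 they were -0.19 and 1.01, so each set of libraries gave the same pair of directions. In bulk RNA, fewer cells of a type and less RNA per cell cannot be told apart.

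**Figure D1:**
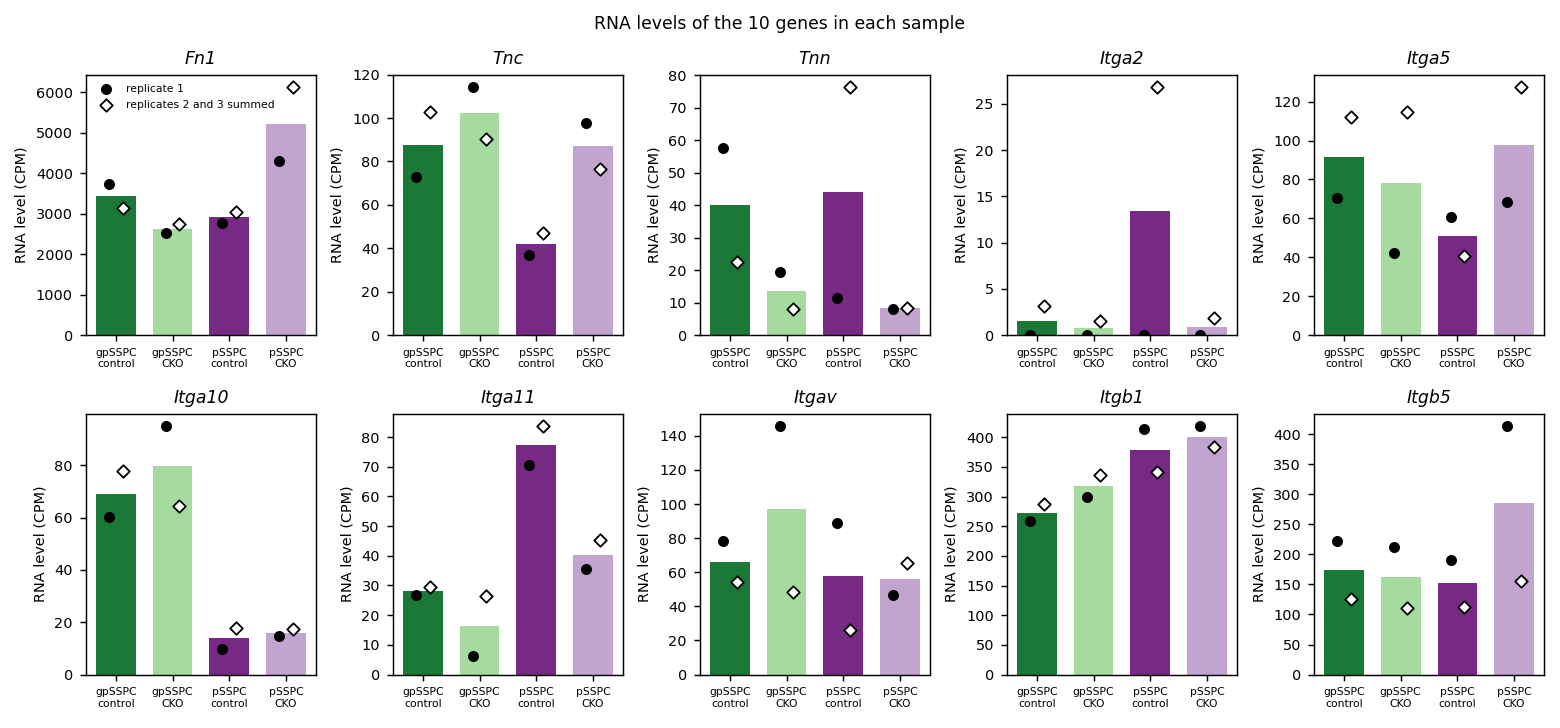
RNA levels in CPM of the 10 genes in each bulk sample. Bars are group means, filled circles replicate 1 and open diamonds replicates 2 and 3 summed. Fn1 control samples lie above CKO samples in gpSSPCs and below them in pSSPCs, and Itga10 is above 60 CPM in all gpSSPC samples and below 18 CPM in all pSSPC samples.

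Marker genes of cell types differed beside Fn1. Prg4, which encodes lubricin of joint surface cells and had the highest sum over the 8 samples in the PMSC (periosteal mesenchymal stem cell) marker list, stood at 2284 and 8699 CPM in control pSSPCs and at 7194 and 28240 CPM in CKO pSSPCs. Its difference was 1.69 ± 1.36 (log2, SE), with an edgeR adjusted p of 1, or 0.0118 with the replicate block. In gpSSPCs Prg4 did not follow Fn1, with 1203 and 18210 CPM in controls and 1483 and 24140 CPM in CKO samples. The summed PMSC markers, all 9 found in all 8 samples, were at 32530 and 38580 CPM in control and 22400 and 48010 CPM in CKO pSSPCs. Most other PMSC markers went against Prg4: 3 of the 9 were higher on average in CKO pSSPCs, 5 were lower without overlap and none was higher without overlap, with a median log2 difference of -0.62 beside -0.03 over all genes. Dcn, the most abundant of them in control pSSPCs, stood at 13640 and 19260 CPM in control and 6701 and 11440 CPM in CKO pSSPCs. Igfbp6 stood at 10980 and 4833 CPM and at 3758 and 2555 CPM. With the replicate block both were lower in CKO pSSPCs (edgeR, adjusted p = 0.0113 and 0.00137, or 1 without it). The summed chondrocyte markers, again 9 of 9 and led by Col2a1, stood at 43420 and 31470 CPM in control and at 25960 and 17220 CPM in CKO gpSSPCs, the population in which Fn1 was also lower in CKO samples. Col2a1 was at 24810 and 15350 CPM in these controls and 11320 and 6295 CPM in these CKO samples. The sum of 16 genes that mark dissociation stress was at 16250 and 15310 CPM in control and 12920 and 13560 CPM in CKO pSSPCs. Of the 16, 4 were lower in CKO pSSPCs without overlap, where 10.9% of all genes were, and 0 were higher. The part of either cell type, or of dissociation stress, in the Fn1 values was not tested.

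Tnc, a tenascin of remodeling and mechanically loaded matrix, stood at 37.0 and 47.0 CPM in control pSSPCs and at 97.7 and 76.7 CPM in CKO pSSPCs, with no overlap. In gpSSPCs controls were at 72.6 and 102.9 CPM and CKO samples at 114.3 and 90.2 CPM, and the groups overlapped. The log2 differences were 1.05 ± 0.50 in pSSPCs and 0.22 ± 0.49 in gpSSPCs. Control pSSPCs thus held the lowest Tnc of the 4 groups. Tnn, tenascin-N, which is known from osteogenic regions, was lower in CKO samples of both populations. It stood at 57.5 and 22.6 CPM in control and 19.3 and 8.17 CPM in CKO gpSSPCs. In pSSPCs it stood at 11.5 and 76.4 CPM in controls and at 8.10 and 8.52 CPM in CKO samples. Its pSSPC difference of -2.42 ± 1.01 (log2, SE) rested on replicates 2 and 3 of the controls: it was -0.46 within replicate 1 and -3.02 within replicates 2 and 3. The gpSSPC difference was -1.55 ± 0.98 and was alike in both sets (-1.52 and -1.37).

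Among the collagen receptors, Itga11 was lower in CKO samples of both populations. Control gpSSPCs had 26.9 and 29.4 CPM, CKO gpSSPCs 6.26 and 26.4 CPM, control pSSPCs 70.8 and 83.7 CPM and CKO pSSPCs 35.4 and 45.2 CPM. The log2 differences were -0.75 ± 0.71 in gpSSPCs, where replicate 1 gave -1.94 and replicates 2 and 3 gave -0.15, and -0.94 ± 0.71 in pSSPCs. Itga10 differed little, with log2 differences of 0.20 ± 0.58 in gpSSPCs and 0.17 ± 0.59 in pSSPCs. Itga2 had counts only in replicates 2 and 3, at 26.8 CPM in control pSSPCs and between 1.57 and 3.18 CPM in the other groups, so its pSSPC difference of -3.73 ± 2.73 stood on 1 sample.

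Among the receptors of fibronectin and vitronectin, Itga5 stood at 60.9 and 40.8 CPM in control pSSPCs and at 68.3 and 127.5 CPM in CKO pSSPCs, a log2 difference of 0.96 ± 0.64 with no overlap. It was 0.16 within replicate 1 and 1.62 within replicates 2 and 3. In gpSSPCs the Itga5 difference was -0.22 ± 0.63, and replicate 1 (42.1 CPM in CKO, 70.5 CPM in control) and replicates 2 and 3 (114.6 and 112.1 CPM) did not share a direction. Itgb5 was 0.91 ± 0.61 higher in CKO pSSPCs (190.9 and 112.7 CPM in controls, 413.5 and 156.2 CPM in CKO samples), although the groups overlapped. This difference was 1.11 within replicate 1 and 0.47 within replicates 2 and 3. With 1 sample left out it lay between 0.052 and 1.437. In gpSSPCs the Itgb5 difference was -0.11 ± 0.60. Itgav had signs that differed between replicate 1 and replicates 2 and 3 in both populations, with averages of 0.55 ± 0.73 in gpSSPCs and -0.02 ± 0.73 in pSSPCs. Itgb1, the shared beta chain, was at 0.22 ± 0.39 in gpSSPCs and 0.09 ± 0.39 in pSSPCs.

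In gpSSPCs, CKO and control samples did not overlap for 4 of the 10 genes. Itgb1 was higher in CKO samples, where 9.19% of the 13173 genes tested showed that pattern, and Fn1, Tnn and Itga11 were lower, where 11.1% did. In pSSPCs they did not overlap for 5 of the 10, with Fn1, Tnc and Itga5 higher (10.7% of all genes) and Tnn and Itga11 lower (10.9%). As the genes were chosen with these differences known, nothing is read from these shares. Over the 10 genes the median absolute log2 difference was 0.30 in gpSSPCs and 0.92 in pSSPCs, beside 0.43 and 0.62 over all genes tested.

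**Figure D2:**
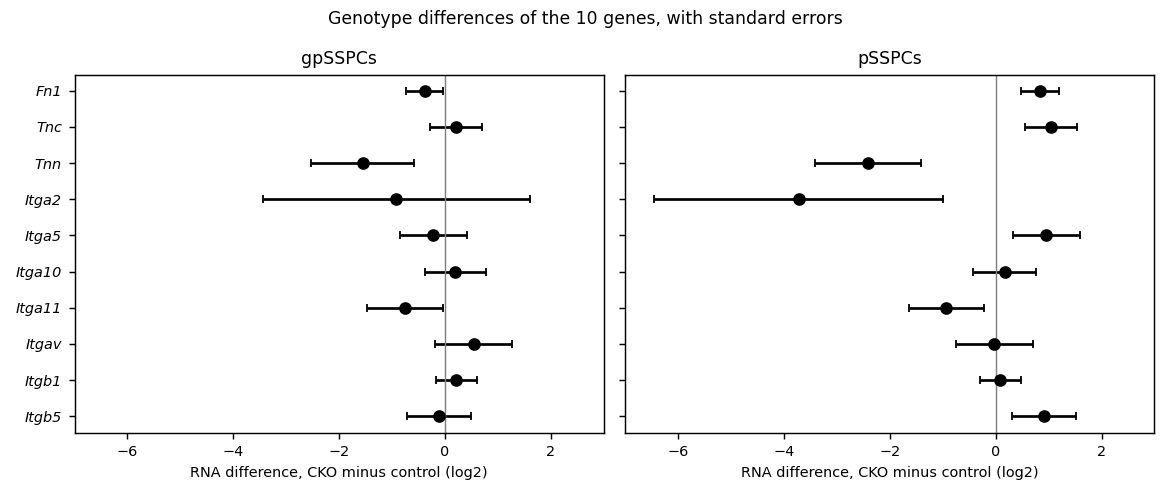
Log2 differences in RNA, CKO minus control, of the 10 genes in gpSSPCs (left) and pSSPCs (right), with standard errors from edgeR (n = 2 samples per group). Fn1 lies at -0.38 in gpSSPCs and 0.84 in pSSPCs, Tnn and Itga11 lie below 0 in both, and no test was made of these values.

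The comparison of gpSSPCs with pSSPCs, averaged over both genotypes, is another contrast than the genotype differences and was tested. As the genes were chosen with earlier results of these data known, by population too, its p-values are not independent evidence. Itga10 had the largest log2 difference of the 10 genes. It stood at 60.4 and 78.1 CPM in control and 94.99 and 64.6 CPM in CKO gpSSPCs, and at 9.87 and 17.97 CPM in control and 14.7 and 17.3 CPM in CKO pSSPCs. All 4 gpSSPC samples lay above all 4 pSSPC samples. The log2 difference, gpSSPCs minus pSSPCs, was 2.30 ± 0.43 (SE, n = 4 samples per population), a 4.92-fold difference, with an edgeR adjusted p of 0.0625. With the replicate number as a block the adjusted p was 0.000468. Within replicate 1 the difference was 2.56 and within replicates 2 and 3 it was 1.95. None of the 10 genes was called without the block, compared with 30 of all genes (0.228%) higher in gpSSPCs and 19 (0.144%) higher in pSSPCs at an adjusted p under 0.05. With the block, 2.92% and 3.97% of all genes were called, and of the 10 genes 1, Itga10. At an unadjusted p under 0.05 the count was 2 of 10, Itga10 in favor of gpSSPCs, where 3.84% of all genes were at that level, and Itga11 in favor of pSSPCs, where 4.95% were.

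Itga11 ran the other way. Its highest gpSSPC sample, at 29.4 CPM, lay below its lowest pSSPC sample, at 35.4 CPM, and the log2 difference was -1.37 ± 0.51 (edgeR, adjusted p = 0.412, or 0.0526 with the block). Itgb1 also lay higher in all 4 pSSPC samples, between 341.3 and 418.5 CPM, compared with 258.1 to 337.1 CPM in gpSSPCs, a small log2 difference of -0.40 ± 0.27 (edgeR, adjusted p = 0.813). Populations that did not overlap were thus seen for 1 of the 10 genes in favor of gpSSPCs, where 4.25% of all genes had that pattern, and for 2 of the 10 in favor of pSSPCs, where 4.05% had it.

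For the other members the populations overlapped and none was called. Fn1 was -0.38 ± 0.25 (edgeR, adjusted p = 0.806), and this average covered 0.24 ± 0.36 between control samples and -0.99 ± 0.36 between CKO samples. Tnc was 0.65 ± 0.35 higher in gpSSPCs (edgeR, adjusted p = 0.705), mainly between controls (1.06 ± 0.50, beside 0.23 ± 0.49 between CKO samples). Itgav was at 0.50 ± 0.52, Itga5 at 0.27 ± 0.45, Itgb5 at -0.31 ± 0.43, Tnn at 0.27 ± 0.68 and Itga2 at -1.61 ± 1.81, with edgeR adjusted p-values between 0.92 and 0.986. Tnn gave 1.69 within replicate 1 and -0.88 within replicates 2 and 3.

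The marker lists differed between the populations too. All 9 chondrocyte markers were higher in gpSSPCs at an unadjusted p under 0.05 (3 after adjustment, 8 with the block), and 7 of 9 PMSC markers were higher in pSSPCs (none after adjustment, 7 with the block). Of the 7 osteoblast (OB) markers 4 were higher in gpSSPCs at that level (1 after adjustment, 5 with the block). The most abundant OB marker, Ibsp, had 47090 CPM in replicate 1 and 8881 CPM in replicates 2 and 3 of control gpSSPCs. The erythroid sum was between 17.6 and 152.3 CPM in the replicate 1 samples and between 1237 and 6620 CPM in replicates 2 and 3. Of 16 genes of dissociation stress none was called without the block, 2 were higher in gpSSPCs at an unadjusted p under 0.05, and 7 were called higher there with the block, with a median log2 difference of 0.36. Their sum was between 17370 and 20420 CPM in gpSSPCs and between 12920 and 16250 CPM in pSSPCs, and Junb was the most abundant. The part of these cells and of dissociation stress in the Itga10 and Itga11 differences was not tested.

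Genes around the 10 in the pathway showed where the matrix of the populations differed. Of 19 fibrillar and integrin-binding collagens 1 was higher in gpSSPCs and 1 in pSSPCs at an adjusted p under 0.05, and 8 and 6 were with the block (median log2 difference 0.26, beside -0.04 over all genes). Col11a1, a cartilage collagen, was higher in gpSSPCs by 1.96 ± 0.28 (edgeR, adjusted p = 0.0304), and Col4a1, of basement membranes, in pSSPCs (-1.85 ± 0.31, adjusted p = 0.0461). Fbn1, the main microfibril protein, was higher in pSSPCs (-2.02 ± 0.32, edgeR, adjusted p = 0.0401) and was the 1 gene called of 19 fibronectin matrix partners and proteases (4 and 6 with the block, median 0.21). Fbln2, a fibulin that binds fibronectin, was higher in pSSPCs (-1.95 ± 0.32, edgeR, adjusted p = 0.0433) and was the 1 called of 17 matricellular genes tested out of 18 (5 and 4 with the block, median -0.10).

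Of the laminins, none of 8 tested, of 11 in the list, was called. In the list 5 (Lama2, Lama4, Lamb1, Lamb2 and Lamc1) were higher in pSSPCs at an unadjusted p under 0.05 by edgeR, a level that 4.95% of all genes reached in that direction. With the block 4 were called, and the median was -1.55. Of 10 other matrix integrins tested, of 11, none was called with or without the block, and 1, Itgb3, was higher in pSSPCs at an unadjusted p under 0.05 (-2.26 ± 0.81, edgeR adjusted p = 0.382). Of 18 focal adhesion adaptors tested, of 22, none was called, and 4 were higher in pSSPCs with the block (median -0.28). Itga2b was the 1 of 8 leukocyte and platelet integrins with enough counts to test (-0.84 ± 0.61, edgeR, adjusted p = 0.835).

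With genotype, no gene of these lists passed an adjusted p under 0.05 without the block. In gpSSPCs, where 0.22% of all genes had an unadjusted p under 0.05, Col9a1, a cartilage collagen, was the 1 gene of the lists at that level (-1.33 ± 0.48, log2, SE, CKO minus control, edgeR adjusted p = 1). With the block 3 collagens of cartilage were lower in CKO gpSSPCs, namely Col9a1, Col2a1 and Col11a2, with edgeR adjusted p-values of 0.00967, 4.21e-05 and 0.0189. In pSSPCs, where 2.1% had, 6 genes of the lists stood out at that level by edgeR. Vcan, a large proteoglycan (1.80 ± 0.75), Col5a3 (1.52 ± 0.57), Timp1, an inhibitor of matrix metalloproteinases (1.35 ± 0.50), and Sdc1, a syndecan (1.27 ± 0.56), were higher in CKO samples, as Fn1 was. Tgfbi (-1.12 ± 0.42) and Tnxb, a further tenascin (-2.45 ± 0.96), were lower. The edgeR adjusted p was 1 for all 6. With the block Timp1 alone of these 6 was called (edgeR, adjusted p = 0.0316).

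The 5 genes whose RNA levels followed Fn1 most closely over the 8 samples, out of 6006 genes with a mean of at least 20 CPM, were Renbp, Dcaf12, Polr2c, Acp5 and Rab21, with Pearson's r of log2 CPM from 0.822 to 0.876. Renbp stood at 21.0 and 15.8 CPM in control gpSSPCs, 17.1 and 12.3 CPM in CKO gpSSPCs, 9.87 and 17.1 CPM in control pSSPCs and 36.9 and 38.3 CPM in CKO pSSPCs. Its highest samples, like those of Fn1, were the CKO pSSPCs.

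Promoter sequences are shown for Itga10 and Itga11, since for these members neither the RNA levels nor the promoter peak heights, taken over the median promoter peak, overlapped between the populations. They are RefSeq entries (GRCm38.p6, 250 bases before to 50 after the annotated start, 5′ to 3′), and capitals mark each CG dinucleotide. Entries were found for 9 of the 10 genes, and Fn1 is named only. The Itga10 promoter is at chr3:96645334-96645633 on the plus strand and the Itga11 promoter at chr9:62677605-62677904 on the plus strand.
Itga10: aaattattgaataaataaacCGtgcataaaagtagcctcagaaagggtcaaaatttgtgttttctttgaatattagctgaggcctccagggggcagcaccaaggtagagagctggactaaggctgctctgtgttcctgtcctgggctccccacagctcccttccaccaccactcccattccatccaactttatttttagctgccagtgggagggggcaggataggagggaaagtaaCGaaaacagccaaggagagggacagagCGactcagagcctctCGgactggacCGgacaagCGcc
Itga11: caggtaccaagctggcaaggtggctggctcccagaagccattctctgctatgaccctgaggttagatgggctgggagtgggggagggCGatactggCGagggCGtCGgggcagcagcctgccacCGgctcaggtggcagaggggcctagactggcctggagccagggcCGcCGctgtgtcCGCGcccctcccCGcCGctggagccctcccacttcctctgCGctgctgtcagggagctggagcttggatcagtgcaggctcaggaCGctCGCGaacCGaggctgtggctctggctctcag

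The Itga10 window held 6 CG dinucleotides and 51.0% G and C, and the Itga11 window 16 and 68.0%. Over all 32851 promoters of the table the medians were 7 and 52.7%, with at most 6 CG dinucleotides in 47.9% and at least 16 in 33% of them. Neither window matched, on either strand, a SOX motif (ACAANG, found in 41.2% of all promoters), a RUNX motif (TGTGGT, 16.8%), an AP-1 motif (TGANTCA, 7.81%) or a GC box (GGGCGG, 35.7%).

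ATAC-seq gave 59209 to 101606 peaks per library from 12250713 to 46756821 tags, called in each library alone. For each gene the peaks with a summit in the gene or within 10 kb of it were counted, per 10000 peaks of the library. The genes were chosen with earlier results of these data known, so the p-values of this population contrast are not independent evidence either. Itga10 (chr3:96645584-96664519, mm10, plus strand) had 0.621 ± 0.131 peaks per 10000 in gpSSPCs and 0.457 ± 0.060 in pSSPCs (SD, n = 6 libraries each). Every gpSSPC library held 5 or 6 Itga10 peaks and every pSSPC library 3 to 5. The rates did not overlap (exact two-sided permutation test, p = 0.00216, the smallest it can give, adjusted p = 0.0137). The gap was narrow, since the lowest gpSSPC rate and the highest pSSPC rate both rounded to 0.507. The Itga10 call rested on the window and on peak numbers, with adjusted p-values of 0.0577 at equal peak numbers per library and 0.0616 within 2 kb by the exact permutation test. Within 50 kb the difference turned to -0.067 peaks per 10000 (adjusted p = 0.804, exact permutation).

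Itga11 (chr9:62677826-62783982, plus strand) went the other way, as in RNA, with 1.35 ± 0.15 in gpSSPCs and 1.92 ± 0.36 in pSSPCs (exact permutation, adjusted p = 0.0444), though the libraries overlapped. Itga2 (chr13:114833081-114932100, minus strand) had 0.613 ± 0.218 in gpSSPCs and 1.40 ± 0.16 in pSSPCs, and Itgb5 (chr16:33829665-33949338, plus strand) had 2.17 ± 0.16 and 2.91 ± 0.27, both with no overlap and an adjusted p of 0.0137 by the exact permutation test. Itgav (chr2:83724397-83806916, plus strand) was at 1.23 ± 0.09 and 1.62 ± 0.30 (exact permutation, adjusted p = 0.0375).

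In all, 1 of the 10 genes was called in favor of gpSSPCs, where 13.6% of 38726 genes with a peak were called, and 4 in favor of pSSPCs, where 10.7% were. For 1 and 2 of them the libraries did not overlap, as for 9.39% and 6.37% of all genes. At equal peak numbers only Itga2 and Itgb5 were called, and Itga11 and Itgav had adjusted p-values of 0.172 and 0.168 by the exact permutation test. The Itga11 call was lost in 8 and the Itgav call in 6 of the 12 repeats that left out 1 library, with adjusted p-values of up to 0.0772 and 0.0705 by the exact permutation test. The Itga10 call was lost without CKO pSSPC replicate 2 (adjusted p = 0.0549, exact permutation). Fn1 (chr1:71585520-71653200, minus strand) was at 1.18 ± 0.25 in gpSSPCs and 0.795 ± 0.431 in pSSPCs (exact permutation, adjusted p = 0.208, or 0.046 without CKO pSSPC replicate 3). Tnc, Tnn and Itga5 had adjusted p-values of 0.242, 0.145 and 0.131, and Itgb1 of 1, by the same exact permutation test.

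Promoter peaks, whose height was compared after the data had been seen, told the same 2 genes apart. Height was taken as the pileup of the highest peak within 1 kb of the start, divided by the median promoter peak of the library. The Itga10 peak stood at 1.00 to 1.26 in control and 0.89 to 1.39 in CKO gpSSPCs, but at 0.26 to 0.49 in control and 0.23 to 0.40 in CKO pSSPCs, with means of 1.18 ± 0.19 and 0.35 ± 0.09 (SD, n = 6 libraries each). The Itga11 peak stood at 0.31 to 0.38 and 0.25 to 0.35 in control and CKO gpSSPCs and at 0.41 to 0.57 and 0.41 to 0.55 in control and CKO pSSPCs. For both genes the populations did not overlap and the adjusted p was 0.013 by the exact permutation test. Scaled to the tags of the library (per 1000000) in place of the median, the means were 4.42 and 1.5 for Itga10, where the populations then overlapped (adjusted p = 0.0611, exact permutation), and 1.19 and 2.07 for Itga11 (adjusted p = 0.0268, exact permutation). The Itga5 peak was also called, at 1.14 ± 0.14 in gpSSPCs and 1.36 ± 0.09 in pSSPCs (adjusted p = 0.0439, exact permutation), but not when scaled to tags (adjusted p = 0.241). Of 23121 genes with a promoter peak, 16.5% were called higher in gpSSPCs and 8.16% in pSSPCs. Tnn had no promoter peak in any library.

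**Figure D3:**
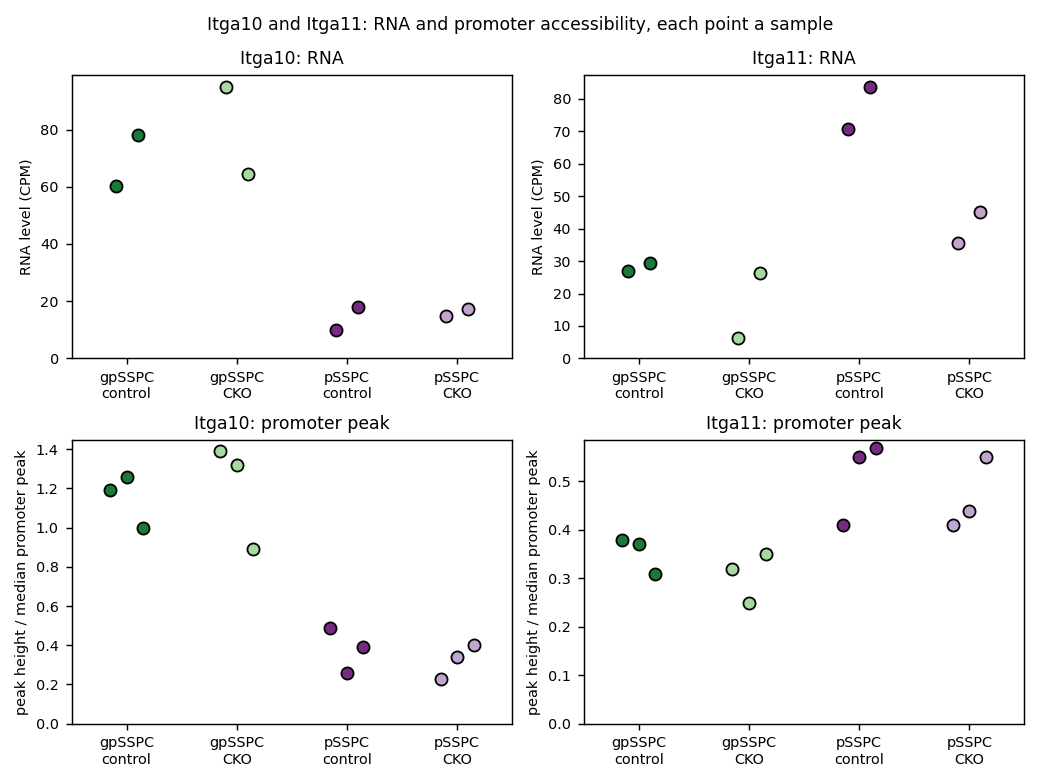
Itga10 (left) and Itga11 (right): RNA level in CPM (top, n = 2 samples per group) and height of the promoter ATAC peak over the median promoter peak of the library (bottom, n = 3 libraries per group). Each point is 1 sample. In both readouts all gpSSPC points lie above all pSSPC points for Itga10 and below them for Itga11.

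Joining overlapping peaks of the 12 libraries gave 171 regions at the 10 genes, of which 36 were present in all 12 libraries and 37 in 1 library. Over the genome 14.3% of 176624 regions were in all 12 and 24.1% in 1. Regions present in all 6 libraries of 1 population and none of the other numbered 4 for gpSSPCs and 6 for pSSPCs, kinds that made up 6.1% and 3.6% of all regions. Itga10 had 1 such region in gpSSPCs (chr3:96662314-96662780), in the gene body, and Itga11 had 1 in pSSPCs (chr9:62689759-62690219), also in the gene body. Itga5 had 1 in pSSPCs about 4.6 kb upstream of its start (chr15:103371118-103372049).

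Fn1 held 28 of the 171 regions, 1 of them, its promoter (chr1:71652630-71654185), in all 12 libraries. A region downstream of the gene (chr1:71575817-71577064) was present in all 6 gpSSPC libraries and no pSSPC library, and 1 in the gene body (chr1:71630887-71631579) in all 6 pSSPC and no gpSSPC library. Control pSSPCs had 4, 3 and 3 Fn1 peaks and CKO pSSPCs 7, 6 and 16, which came to 0.504 ± 0.127 and 1.08 ± 0.44 peaks per 10000 (SD, n = 3), with no overlap. Control gpSSPCs had 12, 11 and 11 and CKO gpSSPCs 6, 11 and 9, or 1.22 ± 0.03 and 1.15 ± 0.38, which overlapped. With 3 libraries against 3 the smallest p a permutation allows is 0.10, so genotype differences in ATAC are values only. The share of all genes whose control and CKO libraries did not overlap is not given here.

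By region, 2 places at Fn1 were present in all 3 CKO pSSPC libraries and in none of the control pSSPC libraries. Over the genome 1.83% of regions had that pattern and 0.0776% the reverse, so a gain in CKO pSSPCs was the more common kind and not particular to Fn1. The region downstream at chr1:71582467-71584272 was also present in all 6 gpSSPC libraries, and that in the gene body at chr1:71592927-71593474 in 1 CKO gpSSPC library. Another region in the gene body (chr1:71644323-71645336) was present in the 3 control gpSSPC libraries and in no other. Over the genome 0.978% of regions were in all gpSSPC controls and no CKO gpSSPC library, and 0.034% showed the reverse. The Fn1 promoter peak itself differed little with genotype, at 1.72 ± 0.20 in control and 1.71 ± 0.04 in CKO pSSPCs and 2.04 ± 0.09 and 2.22 ± 0.47 in gpSSPCs, over the median promoter peak. CKO pSSPC replicate 3, with 16 Fn1 peaks, was the deepest library (46756821 tags) with the most peaks (101606). Over the genome the CKO pSSPC libraries held 72375, 84042 and 101606 peaks and the control pSSPC libraries 63516, 59209 and 79724. The part of depth and of peak number in the Fn1 peak counts was not tested.

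**Figure D4:**
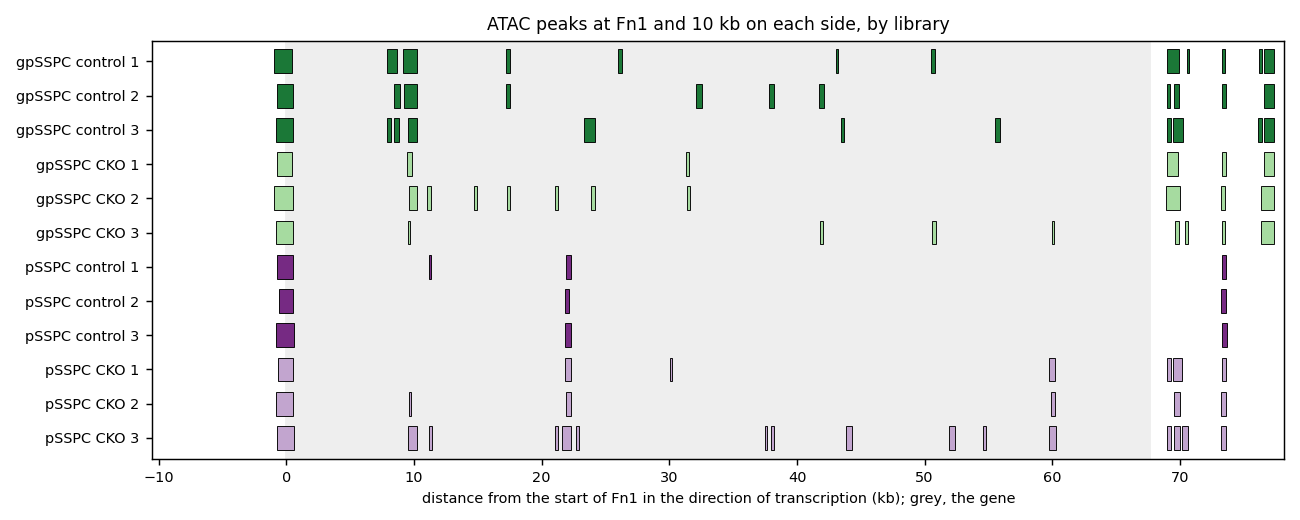
ATAC peaks called at Fn1 and within 10 kb on each side, by library, against the distance in kb from the start of the gene in the direction of transcription. Each box is a peak, and the gene is shaded. The promoter peak is present in all 12 libraries, the peak near 77 kb in the 6 gpSSPC libraries, the peak near 22 kb in the 6 pSSPC libraries and the peaks near 70 kb in gpSSPCs and CKO pSSPCs but not in control pSSPCs.

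In single cells, the classes were rebuilt by clustering without the 10 genes and were named from marker lists, so they may differ from the study's own. The median cell held 923.5 UMIs (molecules counted once) in the Osx-Cre and 1039 in the Prx1-Cre library at 8 weeks, and 1426.5 in control and 1272.5 in CKO cells at 16 weeks. Any pair of libraries shared 0 to 10 cell barcodes. With 1 library per group there is no replicate check, and the 95% intervals (exact Poisson) cover counting error only. Where a class held 0 UMIs of a gene, the limit given is instead the level that 3 UMIs would make in that class. Bone marrow stromal (BMSC-like) cells made up most of each library, from 57.3% to 88.2%. At 16 weeks chondrocyte-like cells were 2.9% of the library labelled control and 0.889% of that labelled CKO, and periosteal mesenchymal stromal (PMSC-like) cells were 3% and 1.23%. One BMSC-like cluster at 8 weeks was led by interferon response genes (Cxcl10, Cxcl9) and 1 at 16 weeks by early response genes (Fosb, Jun, Fos).

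Fn1 RNA was concentrated in PMSC-like and chondrocyte-like cells. At 16 weeks it stood at 5235 CPM (here UMIs of the gene per 1000000 UMIs of the class, with the 95% interval 4878 to 5612) in 62 control and 1941 (1589 to 2348) in 29 CKO PMSC-like cells, and at 1436 (1289 to 1595) in 60 control and 2415 (2104 to 2759) in 21 CKO chondrocyte-like cells. BMSC-like cells held 9.21 and 6.33 and OB-like cells 113.2 and 139.4 CPM in control and CKO. Erythroid-like cells, which should lack the gene, held 0 UMIs in 22 and 20 cells, which allows up to 46.1 and 51.2 CPM. At 8 weeks the Prx1-Cre library had 2657 in PMSC-like and 2600 in chondrocyte-like cells, and the Osx-Cre library 532.8 and 836.2. In cells thinned to 1000 UMIs, an Fn1 UMI was found in 70.9% of 55 control and 43.5% of 23 CKO PMSC-like cells (75.8% and 44.8% unthinned), in 44.4% of 54 and 57.1% of 21 chondrocyte-like cells (63.3% and 66.7% unthinned) and in 1.0% and 0.776% of BMSC-like cells.

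The direction at 16 weeks, with the libraries as labelled, lower in CKO PMSC-like and higher in CKO chondrocyte-like cells, was opposite to that in bulk pSSPCs and gpSSPCs at 20 weeks. A few cells held much of the Fn1. Without them the order of control and CKO was kept in both classes, but the chondrocyte-like values lay closer together. Whether those differ beyond counting error was not tested. Leaving out the 3 cells of most Fn1 UMIs in each class, which held 33.4% of the UMIs in control and 62.3% in CKO PMSC-like cells, gave 3980 and 840.2 CPM. In chondrocyte-like cells these 3 cells held 59.8% and 70.5%, and without them the values were 610.8 and 818.8. They were 3 of 60 control but 3 of only 21 CKO cells, and the values without them are given without intervals. Prg4 stood at 13540 CPM in control and 329.7 in CKO PMSC-like cells. PMSC-like cells with a Prg4 UMI had 7775 (control, 28 cells) and 2100 (CKO, 10 cells) CPM of Fn1, and those without had 1935 and 1853. Both splits were made after the data had been seen. CKO PMSC-like cells also held Spp1 at 11800 and Mmp13 at 1447 CPM, genes of bone-forming and hypertrophic cells, beside 473.5 and 151.3 in controls, while Clec3b (1777 and 1486) and Ly6a (1300 and 1874) were present in both. The part of either in the difference was not tested.

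A caution applies to PMSC-like cells at 8 weeks. The 75 cells of the Osx-Cre library in that class had no UMI of Clec3b, Cilp, Thy1, Ly6a or Pi16. They held Dcn at 1783, Col3a1 at 543.7, Igfbp6 at 65.2 and Prg4 at 4861 CPM, with all Prg4 UMIs in 1 cell. The 161 Prx1-Cre cells held 16960, 2544, 1878 and 9949 CPM of these 4 markers. Spp1 was at 73130 and Mmp13 at 6666 CPM in the Osx-Cre cells, compared with 11990 and 2105 in the Prx1-Cre cells. These 75 cells go against the name. At a resolution of 0.5 only 9 and without integration of the libraries only 2 Osx-Cre cells remained in the class, and Fn1 over both libraries then stood at 3112 and 3224 CPM, in place of 2033.

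Tnc had another distribution. At 16 weeks OB-like cells held 1975 (1841 to 2117) CPM in control and 2640 (2443 to 2848) in CKO, BMSC-like cells 1173 (1133 to 1215) and 1130 (1093 to 1169), PMSC-like cells 131.5 and 183.2, and chondrocyte-like cells 0 (up to 12.4) and 55.6. Erythroid-like cells held 184.2 and 460.8, and the PMSC-like and chondrocyte-like levels were not above these. Over both libraries, however, erythroid-like cells also held the summed BMSC markers at 15140 CPM, beside 45270 in BMSC-like cells. They therefore do not give a level free of stromal RNA, here or for the integrins below. At 8 weeks BMSC-like cells held 838.9 (Prx1-Cre) and 1036 (Osx-Cre), while OB-like cells held 66.1 and 132.1. The OB-like values rested on the clustering and became 412 and 925.8 at a resolution of 0.5 and 436.1 and 1027 without integration. The 8-week PMSC-like value of 2349 in the Osx-Cre library belonged to the cells that go against the name, and the Prx1-Cre value of 497.9 became 84.9 at a resolution of 0.5 and 85.4 without integration. Fn1 and Tnc thus had their highest levels in different classes, apart from those 8-week cells.

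**Figure D5:**
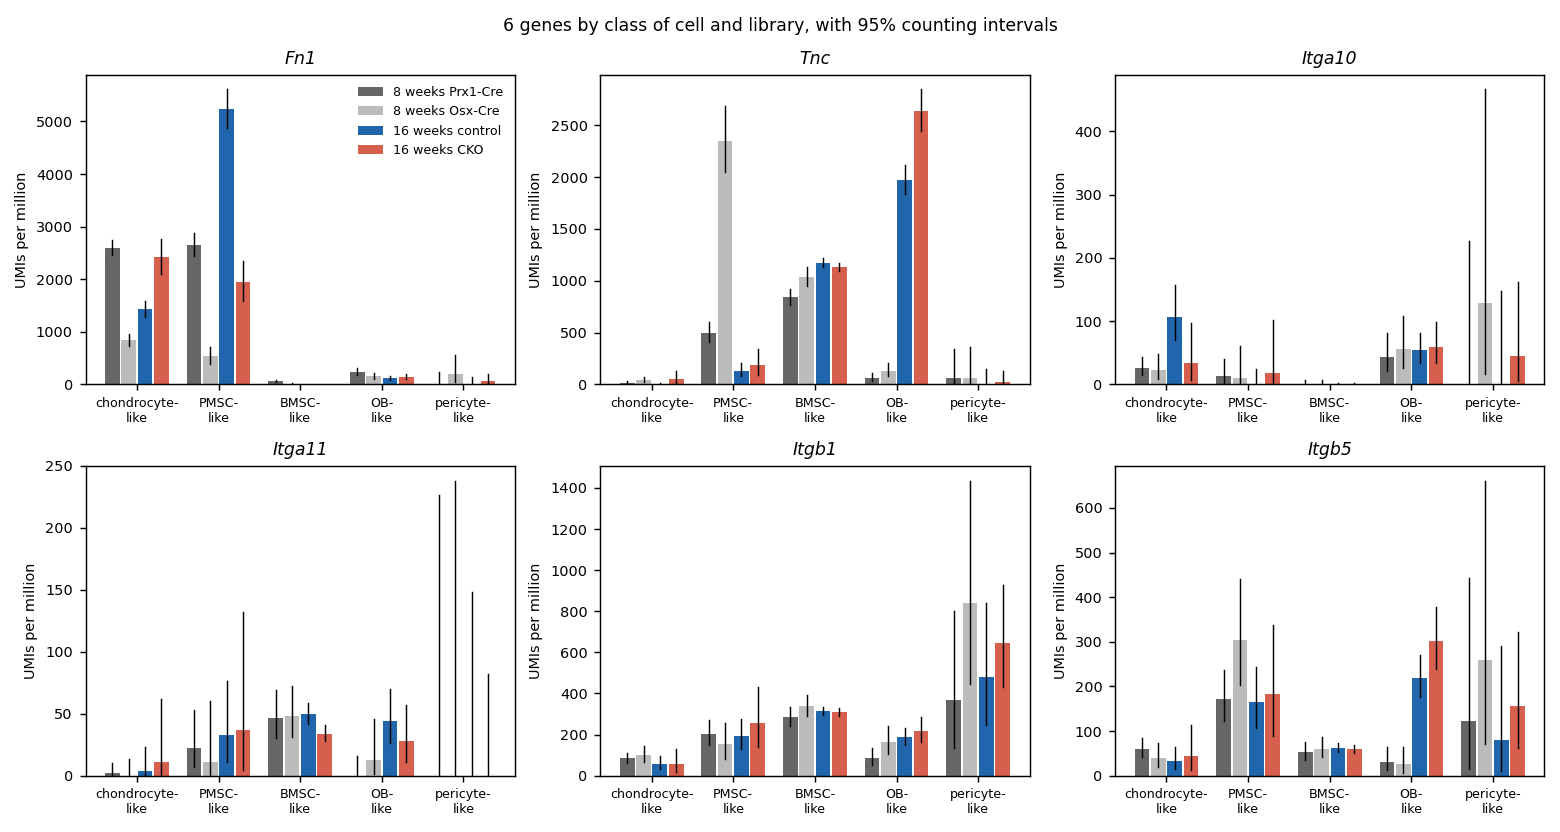
CPM (UMIs per 1000000 UMIs of the class) of 6 of the genes in 5 classes of single cells, for the 8-week Prx1-Cre and Osx-Cre and the 16-week control and CKO libraries (1 library each). Lines are exact Poisson 95% intervals of counting error. Fn1 is highest in PMSC-like and chondrocyte-like cells, Tnc in BMSC-like and OB-like cells at 16 weeks, and Itga10 is near 0 in BMSC-like cells. The high Osx-Cre bar of Tnc in the PMSC-like class comes from 75 cells with no UMI of Clec3b, Cilp, Thy1, Ly6a or Pi16.

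Itga10 and Itga11 also differed between the classes. Itga10 stood at 107.3 (70.1 to 157.2) CPM in control and 33.4 (6.89 to 97.6) in CKO chondrocyte-like cells at 16 weeks, and at 54.1 and 59.7 in OB-like cells, compared with 1 and 2 UMIs in all BMSC-like cells (0.368 and 0.667 CPM). At 8 weeks it was at 26.2 (Prx1-Cre) and 22.2 (Osx-Cre) in chondrocyte-like and 44.1 and 56.6 in OB-like cells, with no UMI in BMSC-like cells of either library, which allows up to 5.59 and 6.06 CPM. Itga11 at 16 weeks stood at 49.7 (41.7 to 58.9) in control and 34.0 (27.7 to 41.3) in CKO BMSC-like cells. It was at 32.9 and 36.6 in PMSC-like cells on 5 and 2 UMIs, and at 4.13 and 11.1 in chondrocyte-like cells on 1 UMI each. Erythroid-like cells at 16 weeks held no UMI of Itga10 or Itga11, which allows up to 46.1 and 51.2 CPM in control and CKO. The PMSC-like Itga11 values lay under these limits. In control cells at 16 weeks, chondrocyte-like cells thus had the most Itga10 and the least Itga11 of the chondrocyte-, OB-, PMSC- and BMSC-like classes, although the Itga10 intervals of chondrocyte-like and OB-like cells (33.9 to 81.9) overlapped, as did the Itga11 intervals of chondrocyte-like (0.104 to 22.99) and PMSC-like cells (10.7 to 76.7). In CKO cells OB-like cells were above chondrocyte-like cells for Itga10, within overlapping intervals.

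Of the other integrins, Itgb1 was found in every class and was highest in pericyte-like cells (481.3 CPM, 248.7 to 840.8, in 17 control and 647.7, 433.8 to 930.2, in 33 CKO cells), followed by BMSC-like cells at 314.5 and 310.9. It was lowest in chondrocyte-like cells at 57.8 and 55.6, under the 107.4 and 85.3 of erythroid-like cells. Itgb5 at 16 weeks stood highest in OB-like cells (219 in control, 302.6 in CKO) and next in PMSC-like cells (164.4 and 183.2). It was 62.2 and 59.0 in BMSC-like cells, beside 30.7 and 34.1 in erythroid-like cells. At 8 weeks OB-like cells were at 30.8 (Prx1-Cre) and 25.2 (Osx-Cre) and PMSC-like cells at 172 and 304.5, the latter in the cells that go against the name. Over both libraries PMSC-like cells were above OB-like cells under each clustering tried, at 210.9 CPM here and at 185.2 at a resolution of 0.5. Itgav stood at 74.0 (64.2 to 85) in control and 93.6 (83.01 to 105.3) in CKO BMSC-like cells, beside 30.7 and 51.2 in erythroid-like cells. Itga5 had 32 UMIs in both 8-week libraries and 59 in both 16-week libraries, too few to order the classes. Tnn had 19 UMIs at 8 weeks and none at 16 weeks. Of the 19, 12 were in PMSC-like cells, 4 of them in the Osx-Cre cells that go against the name. At a resolution of 0.5 that class held 8 and without integration 7. Itga2 had none in any of the 4 libraries.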

How the data were processed

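RNA-seq (modified Smart-seq2 with UMIs) and ATAC-seq were made from sorted gpSSPCs and pSSPCs, and 10x single-cell RNA-seq from whole bone. Per the study's methods and the submitters' processing notes, the authors used STAR (mm10) and HTSeq to obtain RNA counts per gene, collapsed duplicates by UMI, and deposited these counts unnormalized. Cell Ranger made the deposited UMI counts of single cells. For ATAC, the authors used Bowtie2 and then MACS2 2.2.7.1 on every library alone, and the deposited peak lists give pileup height and −log10 of p and q values. Strand use in counting is not given in the sources used here.

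The 10 genes, the gene lists and the tests were chosen with earlier results of these data known. RNA counts were tested with edgeR 4.0.16 (R 4.3.3, TMM scaling, filterByExpr, quasi-likelihood test, Benjamini-Hochberg over 13173 genes), with replicates 2 and 3 of a group summed. Replicate numbers paired the RNA samples: deviations from the group means correlated at 0.553 to 0.611 between samples of the same number. The block is therefore shown where it changed a call of the 10 genes or of the pathway lists. Gene symbols were found for 53620 of 53801 identifiers. Named genes were the 10 members, the genes of the pathway lists past adjusted p in the population contrast or past unadjusted p in a genotype contrast, and the 5 most like Fn1. Laminin and integrin examples past unadjusted p in the population contrast and the block-only collagens were named after their values were seen. Further genes, among them markers of cell types and of dissociation stress, were named outside this rule.

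ATAC peaks with a summit in the gene or 10 kb on each side were counted per 10000 peaks and compared by an exact permutation test of 6 against 6 libraries, adjusted over 38726 genes. In single cells, genes found in 3 or more cells and barcodes of 200 or more genes were kept (782 of 785, 993 of 999, 2068 of 2088 and 2362 of 2373 barcodes in the Osx-Cre, Prx1-Cre, control and CKO libraries; at 8 weeks the study states fewer cells). Seurat 5.3.0 integrated the libraries of an age and clustered them on 2000 variable genes, with 20 components at resolution 0.14 for 8 weeks and 22 at 0.15 for 16 weeks. No doublet caller was run and doublets were not removed. The test scripts were checked on simulated data. Alternatives were the replicate block, each library as a sample, DESeq2 1.42.0, other scaling, no filter, single genotypes, other peak thresholds and windows, other clusterings, and leaving out each library.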

Additional observations from a re-analysis of the deposited data

Results flagged for a closer look

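Values far from the rest of a population were looked for in 40 sets of samples (10 genes, 2 readouts, 2 populations, both genotypes pooled), where chance marks about 1 in 20. In RNA, Itga11 had 1 low gpSSPC sample, CKO replicate 1 at 6.26 CPM, with the next at 26.4 CPM. In pSSPCs, replicates 2 and 3 of the controls stood far above the other samples for Tnn, at 76.4 CPM beside a next value of 11.5 CPM, and for Itga2, at 26.8 CPM beside 1.83 CPM. The lower CKO values of these genes in pSSPCs lean on that sample. In ATAC, CKO gpSSPC replicate 1 had the lowest rate of Fn1 peaks in its population, 0.713 per 10000, with the next at 1.18.

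The genotype difference of Fn1 in RNA was -0.38 in gpSSPCs and 0.84 in pSSPCs (log2), with every CKO sample below every control in the first and above in the second. The difference between them was not tested, since these values chose the gene.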

How the results depend on the processing

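In RNA, 49 genes differed between the populations, none of them a member. The count was 908 (1 member, Itga10) with the replicate block, 1135 (3: Tnc, Itga10 and Itga11) with each library as a sample, 2937 (5: these with Fn1 and Itgb1) with both, 503 (1, Itga10) by DESeq2, 347 (1, Itga10) with no filter on low counts, 0 with control or with CKO samples only, and 0 to 28 leaving out 1 sample. With each library as a sample, replicates 2 and 3 count as separate samples. For genotype, 0 genes were called in either population, but 8 and 13 (gpSSPCs and pSSPCs) with the block, 20 and 334 with the block and each library as a sample, 5 in pSSPCs with no filter, and 634 and 1045 by DESeq2 with the study's unadjusted thresholds. The genotype direction of Fn1 was the same in every alternative run. In ATAC, 9444 genes and 5 members were called, with 5903 and 3 within 2 kb, 17039 and 6 within 50 kb, 4 members among peaks of −log10 q of at least 5, 2 at equal peak numbers, and 3 to 5 leaving out 1 library. In ATAC, same-numbered libraries of different populations did not deviate together (correlations from -0.089 to 0.034). Within gpSSPCs they correlated at 0.165 to 0.328 and within pSSPCs at 0.017 to 0.215, so not every pair was above 0.1. With the replicate block 3 members were called, without Itga11 and Itgav (adjusted p = 0.0713, exact permutation within replicate numbers). Within 50 kb the Itga10 difference turned to -0.067 peaks per 10000 (adjusted p = 0.804, exact permutation). At 8 weeks the class with most Tnc was PMSC-like, but BMSC-like at resolution 0.5 or without integration. The causes of these changes were not tested. In single cells Itga2, Tnn and Itga5 had the fewest UMIs of the members at either age, from 0 to 59.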
